A study of Mus musculus with 6 samples.

Results

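Translation initiation factor genes were followed in sorted mouse elongating spermatids. The genes were taken as all single-gene probe sets whose platform symbol starts with Eif1 to Eif6, without the eIF2 kinases (Eif2ak) and the Argonaute genes formerly named Eif2c. Of 18193 genes with a single-gene probe set on the array, 43 met this rule, and 42 of them passed the filter on dim signal. Some initiation factor genes, among them Eif2s1, Eif4e1b and Eif4g1, were not among the 43, so their families are covered in part. Each gene was represented by its probe set with the highest mean log2 signal over the 4 arrays that carry an shRNA. Testes of ICR male mice, wildtype by label, were transduced at 5 weeks of age with a lentiviral vector carrying GFP, and GFP-positive cells were sorted 1 week later. The groups were shMiwi, an shRNA named for the PIWI protein Miwi (gene Piwil1), shCaf1, an shRNA named for Caf1, taken here as the deadenylase gene Cnot7, and the control vector pSilencer. Each group held 2 arrays labelled as biological replicates. The number of animals behind an array is not given in the sources used here, so p-values measure the spread between these arrays, and 2 arrays per group limit the precision of every value.

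Initiation factors bring the initiator tRNA, the small ribosomal subunit and the mRNA cap together. The eIF2 complex carries the initiator tRNA and is recharged with GTP by eIF2B, and eIF3 is the scaffold on the small subunit. The cap is bound by eIF4E, which joins the scaffold eIF4G and the helicase eIF4A, while 4E-binding proteins block that joining. Spermatids make much of their late protein from stored mRNAs because transcription stops as the nucleus condenses, and MIWI has been reported to work with eIF3f in spermatid translation.

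The control arrays stood far from the other 4 arrays. Biotin-labelled hybridization controls, RNAs added in a fixed amount, read between 0.806-fold and 1.20-fold the shRNA-array mean on the shRNA arrays, against 82.3-fold on control 1 and 16.2-fold on control 2. Replicates correlated at r = 0.982 in shMiwi, 0.983 in shCaf1 and 0.451 in control, as a description across 27022 probe sets that are not independent. Control 1 correlated with the shRNA arrays at 0.0373 to 0.0705 and control 2 at 0.396 to 0.462. On the hybridization scale between 5980 and 8137 probe sets exceeded 1000 on the shRNA arrays, against 101 on control 1 and 495 on control 2. Every difference from control rests on these arrays, and the quality of their RNA was not tested. All 10 elongating spermatid markers examined (Prm1, Prm2, Tnp1, Tnp2, Odf1, Akap4, Smcp, Gapdhs, Spem1 and Oaz3) lay above the array median on the shRNA arrays and on control 2, and 3 of 10 did so on control 1. Markers of other cells were present too, with the pachytene spermatocyte list at a median percentile between 97.9 and 98.5 and the Leydig cell list between 95.5 and 96.5 on the shRNA arrays. Piwil1 had signals of 9780 and 10392 in shMiwi, 21881 and 22442 in shCaf1, and 1445360 and 292542 in control. It was lower in shMiwi than in shCaf1 by a log2 difference of -1.14 (SE 0.10, limma adjusted p = 0.00132 on the 4 shRNA arrays). Cnot7 had signals of 4365 and 5012 in shMiwi, 3633 and 4330 in shCaf1, and 2003570 and 188877 in control, and its difference between the shRNA groups did not pass (0.24, adjusted p = 0.304). Scaled to the hybridization controls, Piwil1 was at 10391 and 12893 in shMiwi, 19926 and 18696 in shCaf1, and 17566 and 18023 in control, so it was lowest on the shMiwi arrays. Cnot7 on that scale was lowest on the shCaf1 arrays, with 4638 and 6218 in shMiwi, 3308 and 3607 in shCaf1, and 24350 and 11636 in control.

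Between the shRNA groups the initiation factor genes differed little. Of the 42 tested, Eif5a2 and Eif1a rose in shMiwi and Eif1ax and Eif3b fell (limma adjusted p under 0.05 over 27022 probe sets). That is 4.76% of the members in each direction, against 3.70% of all probe sets called higher and 3.39% called lower. Among 4600 probe sets between the quartiles of member brightness (mean log2 of 10.41 to 12.76), 6.48% were called higher and 8.17% lower. The share of members was thus near that of all probe sets and not above that of probe sets as bright. In 37 of the 42 genes the log2 difference was smaller than 0.5 in size, and the median difference was -0.14 for the members and 0.02 for all probe sets tested. Scaling moved these calls: on the hybridization scale Eif1ax (-0.23, adjusted p = 0.384) and Eif3b (-0.13, adjusted p = 0.62) were not called, and after quantile normalization Eif1a and Eif3b were not (adjusted p = 0.0594 and 0.0739). Across the members the lowest bound of a 95% interval was -1.15 and the highest was 1.31.

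The promoters of Eif5a2, Eif1ax and Eif3b are shown because these are called members, and that of Eif1a is not shown. Each window runs from 250 bases before the RefSeq start to 50 after it (GRCm38.p6), 5′ to 3′ on the gene's strand. Capitals mark any match, on either strand, to the E-box CACGTG, the cAMP-response-like TGACGTNA, the TATA box TATAAA, the GC box GGGCGG or the CCAAT box, and matches may overlap.
Eif5a2, chr3:28781027-28781326, plus strand: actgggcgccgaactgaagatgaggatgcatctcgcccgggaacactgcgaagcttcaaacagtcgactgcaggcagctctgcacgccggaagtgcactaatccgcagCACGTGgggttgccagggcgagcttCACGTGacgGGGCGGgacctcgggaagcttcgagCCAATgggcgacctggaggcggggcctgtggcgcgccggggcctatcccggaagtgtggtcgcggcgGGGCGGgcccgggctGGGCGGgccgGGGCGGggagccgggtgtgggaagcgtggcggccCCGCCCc
Eif1ax, chrX:159371928-159372227, plus strand: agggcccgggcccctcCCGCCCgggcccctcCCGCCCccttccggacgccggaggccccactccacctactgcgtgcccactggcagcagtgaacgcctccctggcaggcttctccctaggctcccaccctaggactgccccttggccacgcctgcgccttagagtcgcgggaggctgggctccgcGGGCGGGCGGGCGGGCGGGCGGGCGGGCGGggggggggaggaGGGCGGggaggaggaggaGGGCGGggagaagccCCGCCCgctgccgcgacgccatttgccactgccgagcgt
Eif3b, chr5:140419055-140419354, plus strand: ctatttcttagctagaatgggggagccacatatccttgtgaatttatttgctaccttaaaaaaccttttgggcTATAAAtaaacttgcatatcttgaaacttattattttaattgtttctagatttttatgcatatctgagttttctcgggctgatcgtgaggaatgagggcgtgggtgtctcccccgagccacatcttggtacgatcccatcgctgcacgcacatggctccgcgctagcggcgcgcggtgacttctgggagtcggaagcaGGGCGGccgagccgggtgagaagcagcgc
The Eif5a2 window held matches to the E-box, the GC box and CCAAT, the Eif1ax window to the GC box alone, and the Eif3b window to TATAAA and the GC box. RefSeq windows were found for 34 of the 43 genes, taking the first listed window of each. GGGCGG was present in 76.5% of these and in 46.3% of 17492 protein-coding genes, and CACGTG in 20.6% against 7.90%. TGACGTNA was present in 5.88% against 3.62%, CCAAT in 29.4% against 39.0% and TATAAA in 8.82% against 13.3%. The windows of the members held a median of 24.5 CG dinucleotides, between 9 and 50, against a median of 13 in all protein-coding genes. A match describes the letters in a window and is not evidence of a bound factor.

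**Figure D1:**
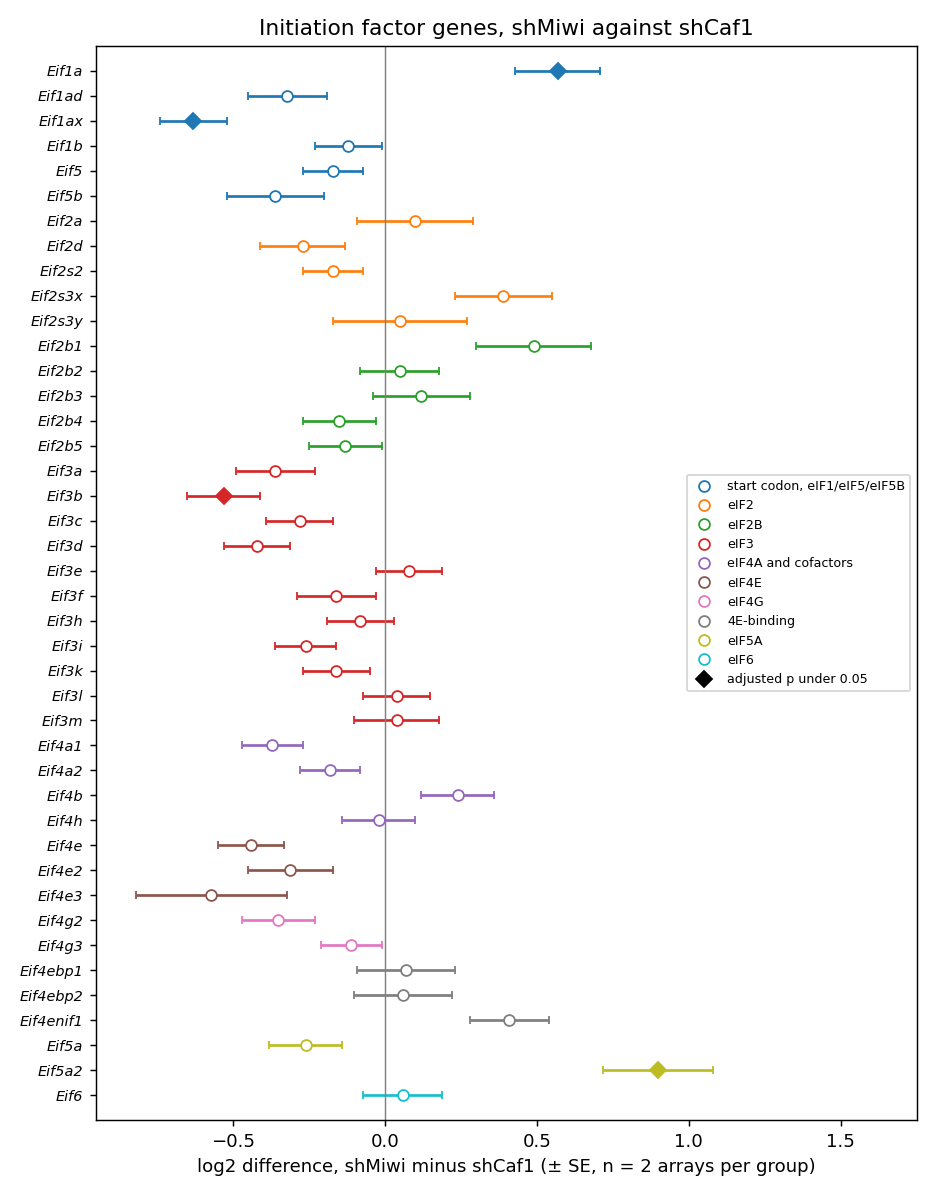
Log2 difference of shMiwi minus shCaf1 for the 42 initiation factor genes tested, ordered by role, with bars of 1 SE from limma on 4 arrays (n = 2 per group). Filled diamonds mark the 4 genes called, Eif5a2 at 0.90 and Eif1a at 0.57 to the right and Eif3b at -0.53 and Eif1ax at -0.63 to the left.

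Among the factors of start codon choice, 1 probe set of each paralog encoding eIF1A was called, that of Eif1a higher and that of Eif1ax lower. The difference between the paralogs was not tested. These proteins help the small subunit to scan and to recognise the start codon. Eif1a read 1984 and 2489 in shMiwi against 1539 and 1440 in shCaf1, with no overlap, a log2 difference of 0.57 (SE 0.14, limma adjusted p = 0.0482). X-linked Eif1ax read 2998 and 3069 in shMiwi against 4538 and 4885 in shCaf1, with no overlap, a difference of -0.63 (SE 0.11, adjusted p = 0.0179). Fits without 1 array leave an arm of 1, assumed to vary like the other group. Without shMiwi replicate 2, shCaf1 replicate 1 and shCaf1 replicate 2 in turn, Eif1a was not called, with differences of 0.41, 0.62 and 0.53 (adjusted p = 0.108, 0.131 and 0.25). Eif1ax was not called without shCaf1 replicate 1 or 2, with -0.68 and -0.58 (adjusted p = 0.0563 and 0.141). Eif1ad, an eIF1A-related gene, Eif1b, a paralog of the start codon factor eIF1, Eif5, the activator of GTP hydrolysis on eIF2, and Eif5b, the subunit-joining GTPase, had differences between -0.36 and -0.12 and did not pass.

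Probe sets of Eif1ax disagreed. The other 2 probe sets read 234 and 242 in shMiwi against 158 and 148 in shCaf1 (0.59, adjusted p = 0.110), and 244 and 221 against 125 and 127 (0.80, adjusted p = 0.0530). They were higher in shMiwi where the brightest probe set was lower, so the direction for Eif1ax is that of 1 probe set, and the mean over its probe sets was 0.25 (adjusted p = 0.264). The second Eif1a probe set had the same sign as the first (0.30, adjusted p = 0.321).

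For the eIF2 complex and its exchange factor limma called 0 of 10 genes, with 1 of each group of 5 at an unadjusted p under 0.05. Eif2s3x, the X-linked gene of the gamma subunit, read 745 and 622 in shMiwi against 536 and 497 in shCaf1, a log2 difference of 0.39 (95% interval 0.02 to 0.75, limma adjusted p = 0.177). Its Y-linked paralog Eif2s3y, which mouse spermatogonia need to proliferate, read 579 and 921 in shMiwi against 635 and 787 in shCaf1, and the groups overlapped (0.05, 95% interval -0.46 to 0.55). Eif2s2, the beta subunit gene, differed by -0.17 and the non-canonical tRNA delivery factors Eif2a and Eif2d by 0.10 and -0.27. Among the 5 eIF2B subunit genes the differences ran from -0.15 for Eif2b4 to 0.49 for Eif2b1. Eif2b1 read 395 and 361 in shMiwi against 299 and 234 in shCaf1, with no overlap but no call (adjusted p = 0.156).

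Of 11 eIF3 subunit genes, 1 fell in shMiwi and 10 did not pass, with a median log2 difference of -0.16, beside 3.39% of all probe sets called lower. On the hybridization scale 1 was called higher and 0 lower, with a median of 0.24. All probe sets had a median of 0.39 on that scale, with 26.4% called higher and 0.977% lower. Eif3b, a core scaffold subunit, read 5345 and 4566 in shMiwi against 6818 and 7489 in shCaf1, a difference of -0.53 (SE 0.12, limma adjusted p = 0.0373). The shMiwi arrays lay below both shCaf1 arrays, and it was not called without shMiwi replicate 2 (-0.42, adjusted p = 0.0870) or without shCaf1 replicate 1 or 2 (-0.60 and -0.46, adjusted p = 0.0801 and 0.216). Eif3d, the cap-binding subunit of eIF3, read 4004 and 4421 in shMiwi against 5520 and 5767 in shCaf1 and narrowly missed the threshold (-0.42, 95% interval -0.67 to -0.17, adjusted p = 0.0542). Eif3f, the reported MIWI partner, read 5765 and 7313 in shMiwi against 6854 and 7655 in shCaf1. Its groups overlapped, with a difference of -0.16 (95% interval -0.46 to 0.15, adjusted p = 0.521). The remaining subunit genes lay between -0.36 for Eif3a, the largest subunit, and 0.08 for Eif3e.

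**Figure D2:**
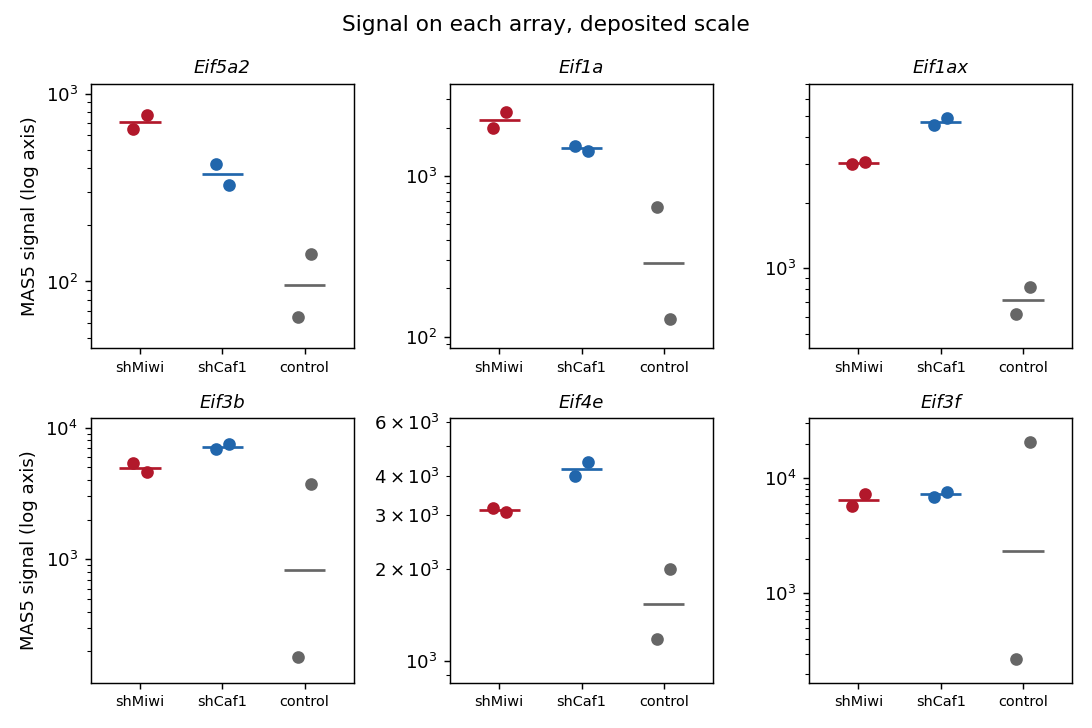
MAS5 signal on a log axis for 6 initiation factor genes on each array, as points, with the geometric mean of the 2 arrays of a group as a line. Eif5a2 and Eif1a lie higher and Eif1ax, Eif3b and Eif4e lower on the shMiwi arrays than on the shCaf1 arrays, Eif3f overlaps, and the control arrays of Eif3f read 270 and 20513.

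The 3 eIF4E family genes among the members read lower on both shMiwi arrays than on the shCaf1 arrays, as did 25.0% of all probe sets. Their median difference was -0.44 on the deposited scale, against 0.02 for all probe sets. On the hybridization scale it was -0.05, against 0.39 for all probe sets. Limma called 0 of the 3 genes on the probe set that stands for the gene (2 at an unadjusted p under 0.05). Eif4e, the main cap-binding protein, read 3140 and 3056 in shMiwi against 4004 and 4440 in shCaf1 (-0.44, SE 0.11, limma adjusted p = 0.0519). A second Eif4e probe set read 2702 and 2230 against 4380 and 4370 and was called lower (-0.83, adjusted p = 0.0119), while the other 2, at 0.01 and 0.08, were not. Eif4e2, a cap-binding homolog that represses translation, read 1148 and 1249 in shMiwi against 1377 and 1606 in shCaf1 (-0.31, adjusted p = 0.212). Its other 4 probe sets ran from -0.40 to 0.08, and 3 of them overlapped between the groups. Eif4e3 was dimmer, with 156 and 101 in shMiwi against 184 and 208 in shCaf1 (-0.57, SE 0.25, adjusted p = 0.200).

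Among 4 tested genes of the eIF4A helicases and cofactors limma called 0, with 1 at an unadjusted p under 0.05. Eif4a1, the main helicase, read 5423 and 5010 in shMiwi against 6731 and 6718 in shCaf1 (-0.37, limma adjusted p = 0.0699). Another Eif4a1 probe set was higher in shMiwi without overlap (0.46, adjusted p = 0.0656), and the third stood at -0.06 (adjusted p = 0.787). Eif4a2, its paralog, read 13412 and 12114 in shMiwi against 14732 and 14222 in shCaf1 (-0.18, adjusted p = 0.303). Eif4a3, the helicase of the exon junction complex, was the gene under the filter, with 31.7 and 2.76 in shMiwi and 9.17 and 3.49 in shCaf1, and it was not tested. The helicase cofactor Eif4b read 2115 and 1904 in shMiwi against 1729 and 1659 in shCaf1 (0.24, adjusted p = 0.272), and the cofactor Eif4h differed by -0.02.

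Of the eIF4G scaffolds and the 4E-binding genes limma called 0, with 1 of each at an unadjusted p under 0.05. Eif4g2, which encodes the eIF4G-like factor DAP5, read 21267 and 17248 in shMiwi against 22865 and 26144 in shCaf1 (-0.35, adjusted p = 0.121). Eif4g3, needed for male meiosis in the mouse, read 9715 and 9496 in shMiwi against 9842 and 10874 in shCaf1 (-0.11, 95% interval -0.34 to 0.13). Of the genes of 4E-binding proteins, Eif4ebp1 read 585 and 567 against 587 and 509, and Eif4ebp2 read 527 and 606 against 541 and 541, and in both genes shMiwi and shCaf1 overlapped (0.07 and 0.06). Eif4enif1, the 4E transporter that takes eIF4E to the nucleus and to processing bodies, read 2159 and 2070 in shMiwi against 1688 and 1498 in shCaf1, with no overlap (0.41, 95% interval 0.12 to 0.69, adjusted p = 0.0879).

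The eIF5A paralogs, whose proteins carry the modified residue hypusine and help ribosomes past difficult peptide bonds, had 1 call between them. Eif5a2 read 649 and 769 in shMiwi against 424 and 326 in shCaf1, with no overlap, 1.86-fold higher in shMiwi (log2 0.90, SE 0.18, limma adjusted p = 0.0289). It was not called without shCaf1 replicate 2 (0.72, adjusted p = 0.191). A dimmer Eif5a2 probe set read 167 and 161 against 137 and 156 (0.15, adjusted p = 0.719). Eif5a read 14271 and 13927 in shMiwi against 15100 and 18885 in shCaf1 (-0.26, 95% interval -0.53 to 0.01, adjusted p = 0.226), and the difference between the paralogs was not tested. Eif6, which keeps ribosomal subunits apart, overlapped between the groups (0.06).

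Across all their probe sets, 103 of 120 passed the filter, and 2 were called higher and 3 lower in shMiwi. Of all probe sets tested, 3.70% were called higher and 3.39% lower. Of the 29 genes with more than 1 passing probe set, 11 had 1 sign in every probe set and 18 had both. The largest spread was 1.43 on the log2 scale, in Eif1ax, followed by 1.03 in Eif2s3x. Probe sets whose names end in _x_at (6 of the 43 chosen) or _s_at (3) can bind related transcripts, among them those of Eif2s3x, Eif3c, Eif4g2 and Eif5a.

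**Figure D3:**
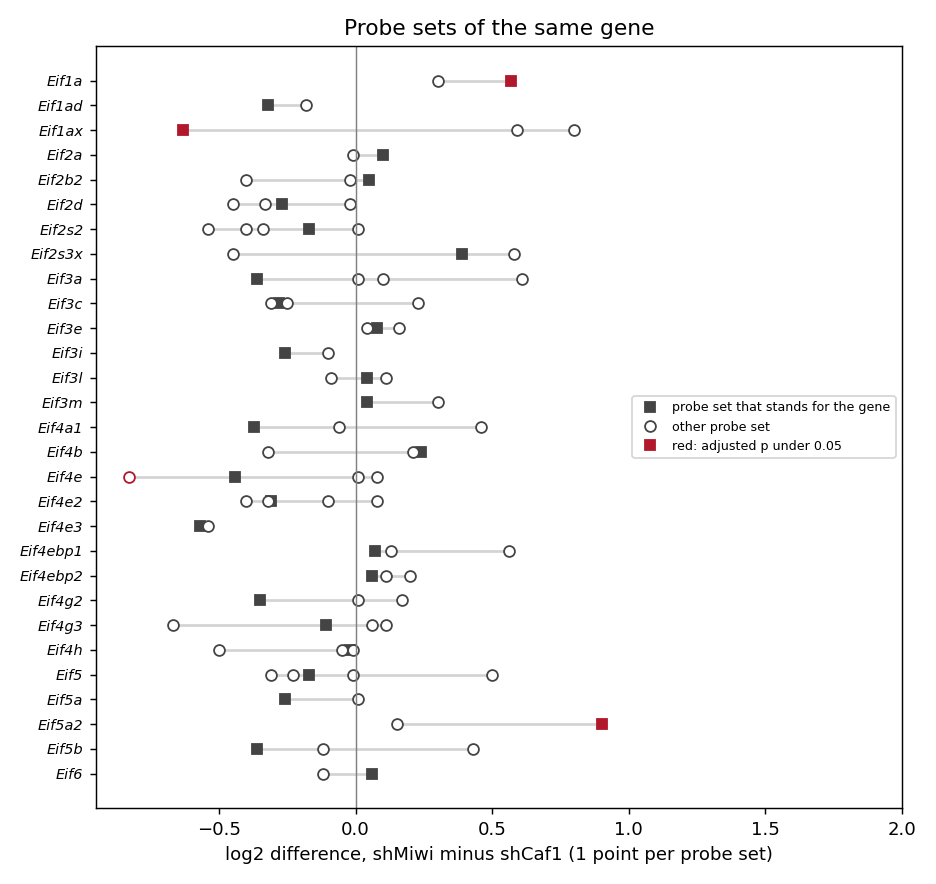
Log2 difference of shMiwi minus shCaf1 for each passing probe set of the 29 initiation factor genes that have more than 1, squares for the probe set that stands for the gene, circles for the others, red for adjusted p under 0.05. The probe sets of Eif1ax run from -0.63 to 0.80, and those of Eif4e from -0.83 to 0.08.

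On the deposited scale small differences ran more often downward. In 24 of the 42 genes (57.1%) both shMiwi arrays read below both shCaf1 arrays, against 25.0% of all probe sets, and in 7 (16.7%) above, against 29.5%. After quantile normalization the counts were 15 below (35.7%, against 26.2% of all probe sets) and 9 above (21.4%, against 27.8%), and the medians were -0.01 for the members and 0.01 for all probe sets. On the scale of the hybridization controls they were 3 below (7.14%, against 5.51% of all probe sets) and 28 above (66.7%, against 61.0%), with medians of 0.25 for the members and 0.39 for all probe sets. On that scale 7 members were called higher and 0 lower, with 26.4% and 0.977% of all probe sets called in these directions. The sign of the members' median thus depended on the scaling. Their median lay below that of all probe sets on each of these scales, with -0.14 against 0.02 on the deposited scale. The members were bright, with a median mean log2 of 11.56 against 8.30 for all tested. Among 4600 probe sets between their quartiles of 10.41 and 12.76, 31.5% read below and 33.9% above without overlap, and the median difference was 0.01.

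Stage markers moved in the same comparison. Their counts on the deposited scale stand beside 3.70% of all probe sets called higher and 3.39% called lower. Of the 10 elongating spermatid markers 8 fell in shMiwi against shCaf1 and 0 rose, with log2 differences from -1.01 to -0.30 and a median of -0.59. On the hybridization scale 3 of the 10 fell and the median was -0.19. All probe sets had a median of 0.39 on that scale, and 0.977% of them were called lower. Of 8 round spermatid markers 2 fell, with a median of -0.27, and of 7 pachytene spermatocyte markers tested limma called 0 (2 at an unadjusted p under 0.05), with a median of 0.16. Of 5 peritubular myoid markers 2 rose, with log2 differences from -0.66 to 0.97 and a median of 0.90. The median percentile of this list lay between 65.8 and 73.0 on the 4 arrays. The part of these markers in the initiation factor values was not tested. In these bulk samples fewer cells of a type and less RNA per cell cannot be told apart.

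Other genes of translation control were examined in 5 lists. Their counts stand beside 3.70% of all probe sets called higher and 3.39% called lower on the deposited scale, and 26.4% and 0.977% on the hybridization scale. On the hybridization scale the lists had 6 higher and 1 lower for the poly(A)-binding proteins, 5 and 0 for the eIF2 kinases, 3 and 0 for the other initiation and recycling factors, 2 and 1 for elongation and termination, and 6 and 0 for the mTOR and MAPK-interacting kinase inputs. Of 12 poly(A)-binding proteins and partners, 2 rose and 1 fell in shMiwi, with a median log2 difference of 0.17. Cpeb4 and Cpeb3 encode proteins that bind the cytoplasmic polyadenylation element of stored mRNAs. Cpeb4 read 3892 and 4151 in shMiwi against 2184 and 2540 in shCaf1 (0.77, limma adjusted p = 0.0135), and Cpeb3 read 1032 and 690 against 1843 and 2055 (-1.19, adjusted p = 0.0132). Paip1, which bridges poly(A)-binding protein and eIF4A, read 2246 and 2397 in shMiwi against 1645 and 1365 in shCaf1 (0.63, adjusted p = 0.0341).

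Of 12 genes of eIF2 kinases, phosphatase subunits and stress targets, 1 rose and 0 fell. It was Dnajc3, an inhibitor of eIF2 kinases, with 2267 and 2455 in shMiwi against 1528 and 1320 in shCaf1 (0.73, limma adjusted p = 0.0201). In the list of other initiation and recycling factors 0 of 12 rose and 2 fell, the helicase gene Ddx3x (-0.55, adjusted p = 0.0462) and Ncbp2 of the nuclear cap-binding complex (-0.53, adjusted p = 0.0492). Of 12 elongation and termination genes 0 rose and 2 fell, Eef1a2 with 127 and 154 in shMiwi against 279 and 372 in shCaf1 (-1.11, adjusted p = 0.0272) and Eef1d with 10552 and 10720 against 14876 and 17854 (-0.61, adjusted p = 0.0211). Of 12 tested genes of mTOR and MAPK-interacting kinase inputs, limma called 0 in either direction (3 at an unadjusted p under 0.05), with differences from -0.34 to 0.49.

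By median percentile the initiation factor genes stood lowest on control 1, as did every cell marker list examined. The marker lists had medians there from 15 for round spermatid to 74.7 for Sertoli cell markers. The median percentile of the initiation factor genes was 93.4 and 92.6 in shMiwi, 93.3 and 94.0 in shCaf1, and 86.5 and 93.1 in control. On each shRNA array 42 of 43 lay above the array median, on control 2 38 and on control 1 33. Eif3f, for example, stood at percentiles 97.4 and 98.1 in shMiwi, 97.8 and 97.9 in shCaf1, and 47.7 and 99.1 in control.

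**Figure D4:**
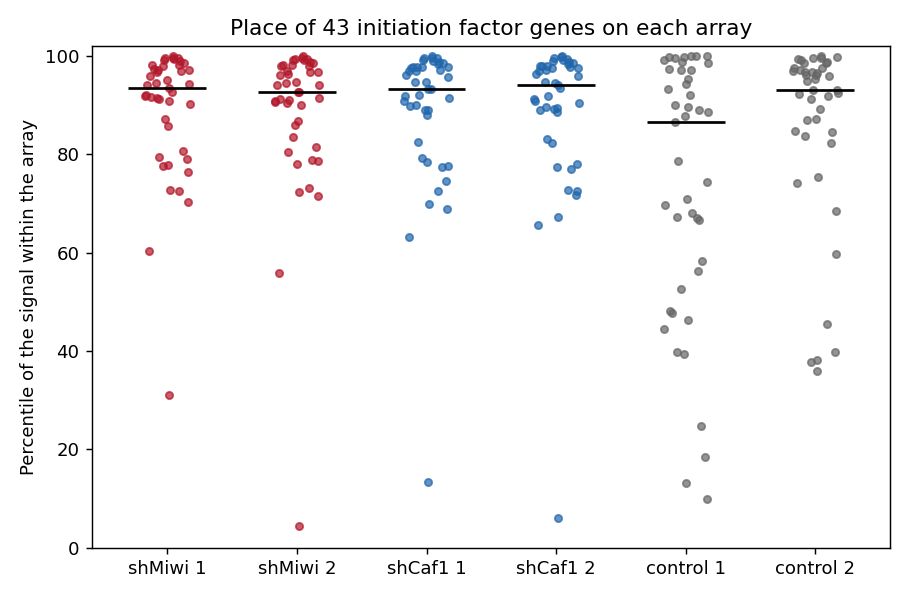
Percentile of the signal within its array for the 43 initiation factor genes, 1 point per gene and a line at the median, on each array. The medians lie between 92.6 and 94.0 on the shRNA arrays, at 86.5 on control 1 and at 93.1 on control 2, and genes on control 1 reach down to 9.81. The low point on each shRNA array is Eif4a3.

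Against control, limma on all 6 arrays called 6 members higher and 7 lower in shMiwi, which is 14.3% and 16.7% of the 42 tested, with 16.9% and 26.4% of all probe sets called in these directions. In shCaf1 it also called 6 and 7, with 15.5% and 26.0% of all probe sets. The comparisons share the control arrays, and their fit understates the spread of those arrays. The median log2 difference was 0.90 in shMiwi and 0.93 in shCaf1, against -0.20 and -0.25 for all probe sets. Both shMiwi arrays lay above both controls in 18 genes (42.9%, against 30.6% of all probe sets) and below in 9 (21.4%, against 40.3%), and both shCaf1 arrays above in 17 (40.5%, against 30.0%) and below in 10 (23.8%, against 40.9%).

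The higher calls in shMiwi were Eif5, Eif1a, Eif4g3, Eif5a2, Eif1ax and Eif3e, and those in shCaf1 Eif5, Eif4g3, Eif1ax, Eif5a2, Eif3e and Eif4e. Eif5 read 8178 and 8677 in shMiwi, 9222 and 9802 in shCaf1, and 430 and 814 in control, so that it rose by a log2 difference of 3.79 in shMiwi (SE 0.45, limma adjusted p = 0.00534) and of 3.97 in shCaf1 (SE 0.45, adjusted p = 0.00601). The shRNA arrays lay above both control arrays. Another Eif5 probe set read 2774 and 3084 in shMiwi, 3597 and 3281 in shCaf1, and 118316 and 3272 in control. Eif4g3 read 1204 and 1639 in control and rose by 2.76 in shMiwi and by 2.87 in shCaf1 (adjusted p = 0.00677 and 0.00725), while another of its probe sets fell by 3.20 in shMiwi (adjusted p = 0.00611). Eif1a read 642 and 128 in control and rose by 2.86 in shMiwi (SE 0.75, limma adjusted p = 0.0317). The second Eif1a probe set was not called there (0.43, adjusted p = 0.424). Eif1ax read 620 and 818 in control and rose by 2.70 in shCaf1 (SE 0.36, adjusted p = 0.00705). A second Eif1ax probe set also rose in shCaf1 (1.68, adjusted p = 0.0227). The third lay below both controls on both shCaf1 arrays, without a call (-1.22, adjusted p = 0.102).

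The lower calls in each shRNA group were Eif4a1, Eif4g2, Eif3d, Eif3h, Eif4e3, Eif3c and Eif6. Their other probe sets often differed. Another Eif3c probe set was called higher in shMiwi (3.11, limma adjusted p = 0.00875) and in shCaf1 (3.36, adjusted p = 0.00838), and its remaining 2 were not called, at -0.64 and 2.29 in shMiwi. The other 2 Eif4a1 probe sets were not called, at -1.12 and -2.27 in shMiwi. Of the other Eif4g2 probe sets 2 were called lower in shMiwi (-3.53 and -3.17) and 1 stood at 1.90 without a call, and the second probe sets of Eif4e3 and Eif6 were lower without a call. Eif3d and Eif3h had 1 passing probe set each. Eif4a1 read 189375 and 97490 in control and fell by 4.70 in shMiwi (SE 0.51, limma adjusted p = 0.00493) and fell by 4.33 in shCaf1 (SE 0.51, adjusted p = 0.00603). Eif4g2 read 313998 and 209653 in control, with differences of -3.74 in shMiwi and -3.39 in shCaf1, and Eif3d read 75567 and 34902, with -3.60 and -3.18 (adjusted p between 0.00645 and 0.00973). All 7 lower calls turned positive on the hybridization scale in each comparison, with Eif4a1 at 0.68 in shMiwi and 0.65 in shCaf1. On that scale 38 members were called higher and 0 lower in shMiwi, and 37 and 0 in shCaf1, with medians over all probe sets of 3.58 and 3.15. Most of all tested probe sets were also called higher in shCaf1 on that scale. The share of all probe sets called there in shMiwi is not given here.

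The split of the calls against control moved with scaling for all probe sets as well. In shMiwi 39.0% of all calls were higher on the deposited scale, 58.2% after quantile normalization, 77.6% after median centring and 99.9% on the hybridization scale. In shCaf1 these shares were 37.4%, 58.5% and 78.3%, and on the hybridization scale 23669 of 27022 probe sets were called higher and 10 lower. Fits without 1 control array leave a control arm of 1, which is assumed to vary like the shRNA groups. Without control replicate 1 such a fit called 16 members higher and 17 lower in shMiwi and 79.7% of all probe sets, and without control replicate 2 it called 27 and 12, and 84.0%. In shCaf1 these were 15 and 15, with 78.5% of all probe sets, and 28 and 11, with 83.9%. With 1 array of the compared shRNA group left out, either of its 2, limma called 0 members and 0 probe sets, with 9 to 12 members in shMiwi and 8 in shCaf1 at an unadjusted p under 0.05.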

How the data were processed

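Per the labels' protocols, RNA of the sorted cells was amplified and labelled for Affymetrix 3′ expression arrays of the mouse. The authors' deposited table holds 1 linear signal intensity per probe set for 45101 probe sets on 6 arrays. MAS5 is the summary method that the submitters' processing notes name, and its version and a genome build are not given in the sources used here. The 2% trimmed mean was 500 on every array, so dim arrays were multiplied up.

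Signals were taken to log2 after adding 16, which understates changes of dim probe sets. Control probe sets (64) were dropped. Probe sets above the 40th percentile of the mean log2, over 4 arrays for shMiwi against shCaf1 and over 6 for comparisons with control, were tested (27022 each). The platform annotation gave 1 gene to 34945 probe sets, several to 932 and none to 9160. The test was limma 3.58.1 (R 4.3.3), with lmFit and trended eBayes and Benjamini-Hochberg adjustment over all tested probe sets, with calls at an adjusted p under 0.05. The 4-array fit has 2 residual degrees of freedom and the 6-array fit 3. The 6-array fit shares 1 spread over groups although control replicates differed by a median of 1.28 on the log2 scale, against 0.215 for shMiwi and 0.183 for shCaf1, so its p-values are too small. The 18 hybridization control probe sets gave another scale. Per-array values are given for called members, the 6 largest differences per direction, fixed paralog groups and Eif3f, for the 3 largest calls per direction against control, and for at most 3 called genes per list. Values of other probe sets were chosen after they were seen, as were the brightness range and the promoter motifs. Members, lists and tests were chosen with earlier results of these data known. The fit was tested on simulated data.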

Additional observations from a re-analysis of the deposited data

How the results depend on the processing

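Called counts for shMiwi against shCaf1 (4 members) were 1 with no filter, 2 with quantile normalization, with median centring and with the mean over probe sets, 7 with hybridization control scaling, 8 at an adjusted p under 0.1 and 12 with a replicate block. They were 0 in limma without an intensity trend (8 at an unadjusted p under 0.05; 16 of all probe sets called) and 0 in the fit of all 6 arrays (0 at an unadjusted p under 0.05; 0 of all probe sets called), whose spread includes the control arrays. Leaving out each replicate gave 0 to 7 (6 at an unadjusted p under 0.05 where it was 0). Over all probe sets, calls were 1916, 568 with no filter, 5392 with the replicate block and between 208 and 3419 without a replicate. The replicate numbers gave a correlation of 0.192 between same-numbered shMiwi and shCaf1 deviations from the group means, and no label says that they pair samples. Members without overlap, an alternative added after seeing the data, were 15 lower with quantile normalization (7088 of 27022 probe sets in all), and 3 lower and 28 higher on the hybridization scale (1489 and 16471). Against control, counts of 13 became 38 (shMiwi) and 37 (shCaf1) on the hybridization scale, 21 with median centring (shCaf1), 6 (shMiwi) and 7 (shCaf1) with array weights per group, and 0 to 39 without a replicate in either comparison; the replicate block gave 12 and 9. Shares of all probe sets called are not set beside every count above. Such counts alone do not separate a change in the members from a change in the call rate of all probe sets. Signs turned for these differences. In shMiwi against shCaf1 on the hybridization scale, Eif4a1 stood at 0.03, Eif4e2 at 0.09, Eif4a2 at 0.21, Eif5a at 0.14, Eif4g2 at 0.05, Eif4g3 at 0.29 and Eif3f at 0.24. With quantile normalization Eif4a2 stood at 0.12, Eif5a at 0.01, Eif2s3y at -0.02, Eif4ebp1 at -0.01, Eif4ebp2 at -0.02 and Eif4g3 at 0.16. With the mean over probe sets Eif1ax stood at 0.25 and Eif4a1 at 0.01. Without 1 replicate in turn Eif2s3y ranged from -0.28 to 0.37, Eif4ebp1 ranged from -0.03 to 0.17, Eif4ebp2 ranged from -0.04 to 0.16 and Eif3f ranged from -0.33 to 0.01. Against control on the hybridization scale, Eif4a1 stood at 0.68 and 0.65, Eif4g2 at 1.64 and 1.60 and Eif3d at 1.77 and 1.79 (shMiwi and shCaf1), Eif4g2 in shCaf1 at 0.01 with quantile normalization, and Eif4g3 at -0.32 and -0.16 with the mean over probe sets. The cause was not tested. No detection calls were used, so signal over background limits dim genes such as Eif4e3 and Eif4a3.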
